A study of Mus musculus with 8 samples.

Results

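The 10 transcripts of AP-1 and immediate early genes followed here were measured across a knockdown of PRDX6 and treatment with largazole: Fos, Fosb, Fosl1, Fosl2, Jun, Junb, Jund, Atf3, Egr1 and Ier3. They were taken by gene symbol from the deposited tables, where all 10 were found among 24411 genes, and all 10 had enough counts to be tested together with 12517 genes in all. The cells were A223, from a squamous carcinoma of the mouse, used as the parental line or as cells labelled PRDX6 KD (KD below), a knockdown of the peroxiredoxin PRDX6, an enzyme that detoxifies peroxides, lipid ones included. Cells of each kind were taken with DMSO at 0 h or with 100 nM largazole at 18 h, a compound that blocks class I histone deacetylases, which gave 4 groups of 2 libraries: parental with DMSO, parental with largazole, KD with DMSO and KD with largazole. Drug and time changed together, so their parts cannot be told apart. The labels used here do not give the knockdown method or say whether the KD cells are 1 clone. The reference for KD cells was the parental line, and a non-targeting construct was not analysed here. The labels do not tie replicates to separate cultures: the p-values then reflect only how these libraries spread, and that spread may be technical.

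AP-1 is a dimeric transcription factor built from JUN proteins (Jun, Junb, Jund), which can pair with each other, and FOS proteins (Fos, Fosb, Fosl1, Fosl2), which need a JUN partner to bind DNA. Many of these genes are immediate early genes, switched on by growth factors or stress from factors already present in the cell, without new protein synthesis, and usually silenced again soon afterwards. In squamous carcinoma cells a sustained form of AP-1, rich in FOSL1 and JUN, is known to accompany RAS signalling and invasion.

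The libraries held 13020492 to 15613216 estimated counts. Prdx6 itself was at 283 to 297 CPM (TMM-scaled CPM, counts relative to library size) in parental DMSO, 233 to 257 CPM in parental largazole, 79.2 to 86.6 CPM in KD DMSO and 64.9 to 81.1 CPM in KD largazole, lower in every KD library. Rn45s, the ribosomal RNA precursor, was at 23920 and 742 CPM in the KD largazole libraries and between 950 and 9963 CPM in the other 6. In the KD largazole pair the replicate difference also ran with transcript length (Spearman's rho = -0.637 across 9822 genes, which are not independent replicates), so that shorter genes read higher in replicate 1. The same correlation was -0.0799 in parental DMSO, -0.434 in parental largazole and -0.383 in KD DMSO. Fits without Rn45s, with the trend on length removed and without each library were run as alternatives, and values that change a call stand beside it or among the alternatives at the end. Of 9 squamous and epithelial markers, Krt8 (1006 to 2267 CPM) and Krt18 (94.8 to 183 CPM) were high, and the summed level of the 9 was 2002 to 2134 CPM in parental DMSO, 1167 to 1278 in parental largazole, 2297 to 2397 in KD DMSO and 1323 to 1607 in KD largazole, nearly all of it Krt8. Of the 5 that could be tested, 4 (Krt18, Krt14, Trp63 and Epcam) were higher and Krt8 lower under largazole in both genotypes. Of all tested genes 26.8% were higher and 22.6% lower under largazole in parental cells, and 24.6% and 23.1% in KD cells. The defining squamous markers were at or near 0: Krt5, Krt6a and Krt17 had at most 4 counts in any library, Cdh1 at most 11, Krt14 was at 0 to 0.222 CPM with DMSO and 1.48 to 3.20 CPM with largazole, and Trp63 and Epcam stood at 0 in all DMSO libraries and reached 0.935 and 3.97 CPM with largazole, so the squamous label is not borne out by these markers. The summed level of 5 fibroblast markers was 2811 to 2820 CPM in parental DMSO, 3100 to 3162 in parental largazole, 3751 to 3833 in KD DMSO and 3360 to 3884 in KD largazole, carried by Col1a1 and Col1a2, with Lum at most 2 counts. Of the 4 tested, 1 was higher and 2 lower under largazole in parental cells (Pdgfra 395 and 399 CPM with DMSO, 228 and 252 with largazole), and 0 higher and 2 lower in KD cells. With the knockdown all 4 were higher in DMSO and 2 under largazole, where 7.11% and 8.12% of all tested genes were higher. The 4 endothelial markers summed to 4.42 to 7.90 CPM with Kdr at 0. The 5 leukocyte markers summed to 4.07 to 4.79 CPM in DMSO and 41.7 to 63.2 CPM under largazole, nearly all of it Cd68, with Adgre1 and Cd3e at 0. Their part in the results was not tested.

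The upstream sequences of 4 members are shown because the data set them apart: Jun and Fosb fell under largazole, Junb rose, and Fos was the lowest member. Each line gives the 250 bases before the annotated start (RefSeq, GRCm38.p6, the assembly of mm10), read 5′ to 3′ on the gene's strand, and 8 of the 10 members matched an entry. The positions are chr4:95052223-95052472 (minus strand) for Jun, chr7:19310046-19310295 (minus strand) for Fosb, chr8:84978749-84978998 (minus strand) for Junb and chr12:85473640-85473889 (plus strand) for Fos. Capitals mark matches to binding letters of AP-1, CREB/ATF, SRF or EGR1 factors.
Jun: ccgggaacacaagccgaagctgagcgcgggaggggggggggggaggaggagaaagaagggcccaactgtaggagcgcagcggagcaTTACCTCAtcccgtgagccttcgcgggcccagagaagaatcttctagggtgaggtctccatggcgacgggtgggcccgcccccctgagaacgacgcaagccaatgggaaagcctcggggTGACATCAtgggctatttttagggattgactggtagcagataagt
Fosb: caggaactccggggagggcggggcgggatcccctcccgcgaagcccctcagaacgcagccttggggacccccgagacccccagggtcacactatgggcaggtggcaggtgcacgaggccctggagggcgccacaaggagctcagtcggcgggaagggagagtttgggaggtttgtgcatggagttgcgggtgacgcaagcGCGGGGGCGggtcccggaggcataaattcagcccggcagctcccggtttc
Junb: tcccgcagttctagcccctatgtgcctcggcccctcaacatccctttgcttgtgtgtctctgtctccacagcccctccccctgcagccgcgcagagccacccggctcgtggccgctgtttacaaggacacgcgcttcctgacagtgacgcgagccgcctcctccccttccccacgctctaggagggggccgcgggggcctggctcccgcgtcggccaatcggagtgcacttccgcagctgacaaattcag
Fos: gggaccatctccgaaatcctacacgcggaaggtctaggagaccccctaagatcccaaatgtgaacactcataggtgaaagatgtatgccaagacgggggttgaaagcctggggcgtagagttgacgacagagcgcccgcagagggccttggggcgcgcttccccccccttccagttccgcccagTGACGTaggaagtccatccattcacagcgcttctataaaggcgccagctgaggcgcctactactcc
The letters searched on both strands were TGANTCA (AP-1), TGACGTCA and its core TGACGT, which lies inside it (CREB/ATF), the variants TGACATCA and TTACCTCA, GCGNGGGCG (EGR1) and the CArG box of SRF. The Jun window held TGACATCA 45 bases before the start and TTACCTCA 164 bases before it. Of all 32851 promoter windows of this length, 2.93% held the former and 0.728% the latter. Both variants were searched as set spellings, so these shares are a description and no test of whether Jun is unusual. The Fos window held TGACGT 66 bases before the start, as did 6.47% of all windows anywhere in them, and a TATAAA 33 bases before it (12.4% of all windows). The EGR1 letters were found in the Fosb window 50 bases before the start and in the Fosl2 window 79 bases before it, against 4.70% of all windows, letters that can overlap a GC box (GGGCGG, 32.7% of all windows). None of the capitalised motifs was found in the Junb window. No CArG box (1.47% of all windows), TGANTCA (6.75%) or TGACGTCA (1.55%) was found in the windows of the 8 members with an entry. Egr1 and Fosl1 had no entry, so their upstream sequences were not searched. Bases further upstream were not searched. For Jund, Atf3 and Fosl2 the RefSeq start lay well away from the start of the gene in GENCODE M21, the source of the gene positions given below. Windows at other starts were not searched. The Atf3 window held TGACGT, read on the opposite strand, 8 bases before the start. A match is a description of letters, not of binding.

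Levels of different genes were compared per length, as TMM-scaled CPM per kilobase of annotated exon. The order of the genes depends on these lengths, that of Jund among them, as described for the families below. In parental DMSO the members fell into 3 tiers. Fosl1 (134 ± 3.40), Ier3 (127 ± 3.65), Jun (116 ± 1.80) and Jund (98.8 ± 5.69 CPM per kb, SD, n = 2) were the most abundant. Junb (27.2 ± 0.104), Fosl2 (13.7 ± 0.364) and Egr1 (9.91 ± 0.0705 CPM per kb) stood in between. Fosb (4.85 ± 0.666), Atf3 (3.16 ± 0.143) and Fos (0.288 ± 0.0823 CPM per kb) were the lowest. Neighbours within the upper tier lay close to each other: the nearest libraries of Fosl1 and Ier3 were at 132 and 129.5 CPM per kb. In KD largazole the order was led by Ier3 (295 ± 62.8 CPM per kb) ahead of Jund (91.4 ± 18.2), Fosl1 (65.4 ± 7.01) and Jun (65.2 ± 0.940). Fosl1 and Jun did not differ there beyond their spread.

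**Figure D1:**
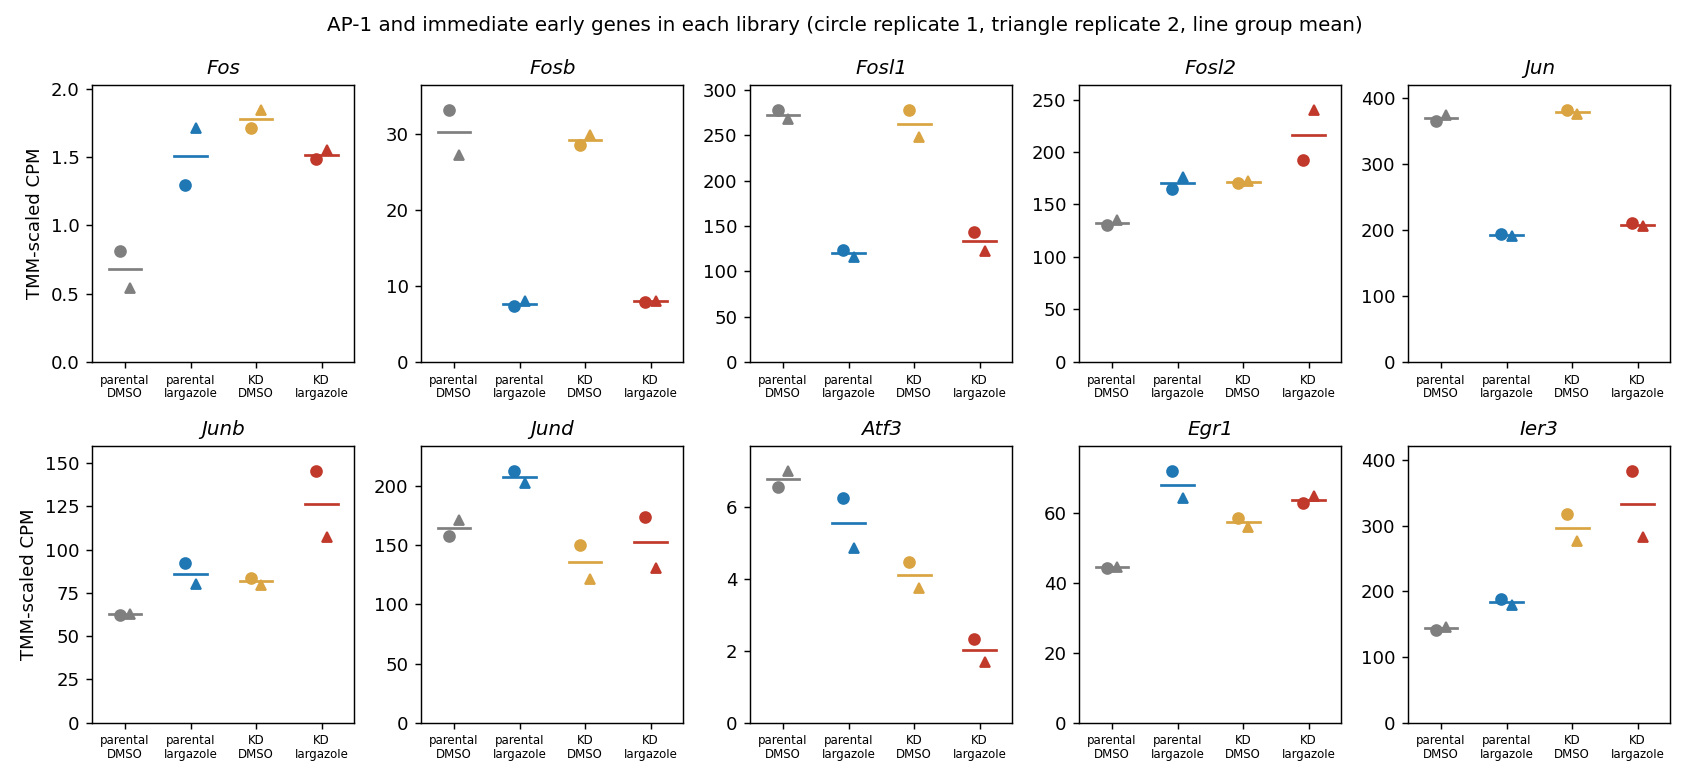
Level of each gene (TMM-scaled CPM, linear axis from 0, scaled per panel) in the 4 groups, with a circle for replicate 1, a triangle for replicate 2 and a line for the group mean. Fosb, Fosl1 and Jun are lower in all 4 largazole libraries, and Ier3 is higher in all 4 KD libraries.

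Among the FOS genes, Fosb and Fosl1 fell under largazole in both genotypes and did not pass between the genotypes. Fosb (chromosome 7, 19302696 to 19310051, minus strand), whose protein and its truncated form are products of splicing that gene counts cannot separate, read 33.2 and 27.3 CPM with DMSO and 7.36 and 7.98 with largazole in parental cells, against 28.7 and 29.9 and then 7.95 and 8.02 in KD cells. The 4 largazole libraries lay far below the 4 DMSO libraries, and the genotypes overlapped. Its log2 fold change under largazole was -1.98 ± 0.14 in parental cells (SE, adjusted p = 3.88e-06), and KD cells gave -1.87 ± 0.14 (adjusted p = 5.54e-06, edgeR's quasi-likelihood test throughout), which is 0.254-fold and 0.273-fold the DMSO level. As in any bulk sample, fewer cells with a transcript and less RNA per cell cannot be told apart. Fosl1, which encodes FRA1, read 278 and 268 CPM with DMSO and 124 and 116 with largazole in parental cells, against 278 and 248 and then 143 and 123 in KD cells. All largazole libraries again lay below all DMSO libraries, with log2 fold changes of -1.19 ± 0.09 (adjusted p = 7.35e-06) and -0.98 ± 0.09 (adjusted p = 2.35e-05). Fosl1 (chromosome 19, 5447547 to 5455946, plus strand) shares 1163 of its 2033 exon bases with Ccdc85b on the other strand, and whether the counting used strand is not stated in the labels. Ccdc85b, read on its own, was not lower: 47.7 and 48.8 CPM in parental DMSO and 65.9 and 62.6 in parental largazole (log2 fold change 0.41 ± 0.16, adjusted p = 0.0527). In KD cells Ccdc85b was called higher, at 67.7 and 53.5 CPM with DMSO and 104.8 and 75.0 with largazole (0.57 ± 0.16, adjusted p = 0.0133). The calls of Fosb and Fosl1 passed in all 19 alternatives each. Between genotypes Fosl1 had 0.15 ± 0.09 under largazole (adjusted p = 0.321), which passed only without KD largazole replicate 2 (0.26, adjusted p = 0.022).

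Fosl2, which encodes FRA2, moved the other way. It read 130 and 135 CPM with DMSO and 164 and 176 with largazole in parental cells, against 170.2 and 172 and then 192 and 239.9 in KD cells. The parental DMSO libraries were the lowest and the KD largazole libraries the highest, while parental largazole and KD DMSO overlapped. Largazole raised Fosl2 by 0.36 ± 0.10 in parental cells (log2, adjusted p = 0.0158) and by 0.34 ± 0.10 in KD cells (adjusted p = 0.0207), and KD cells held more than parental cells by 0.37 ± 0.10 in DMSO (adjusted p = 0.0473) and 0.35 ± 0.10 under largazole (adjusted p = 0.0419). These 4 calls were near the threshold. With only the libraries compared, that of largazole in KD cells was lost (0.34, adjusted p = 0.0735). The parental call was lost without parental DMSO replicate 1 or 2 (adjusted p = 0.132 and 0.0846) or parental largazole replicate 2 (0.135). The KD call was lost without KD DMSO replicate 1 or 2 (adjusted p = 0.103 and 0.0965) or KD largazole replicate 2, which left 0.16 (0.0659). Among the fits without 1 library, the genotype call in DMSO was kept in those without a KD largazole library and was lost without either parental DMSO (0.318 and 0.241), parental largazole (0.0837 and 0.1002) or KD DMSO library (0.211 and 0.217). It was also lost with RLE scaling (0.0549), library totals (0.0937) and limma-voom (0.052). The genotype call under largazole was kept in 1 of the 8 fits without 1 library, that without KD largazole replicate 1, and without replicate 2 it was 0.18 (adjusted p = 0.0687). It was also lost with library totals (0.0899) and with only the libraries compared (0.154).

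Fos, the prototype immediate early gene, was close to the limit of detection. Its counts were 11 and 8 with DMSO and 19 and 26 with largazole in parental cells, against 26 and 25 and then 19 and 23 in KD cells, or 0.540 to 1.84 CPM over the 8 libraries. The parental DMSO libraries were the lowest. Parental largazole overlapped both KD groups, and KD DMSO lay above KD largazole in CPM. The log2 fold change was 1.15 ± 0.40 for largazole in parental cells (adjusted p = 0.0349) and 1.39 ± 0.39 for the knockdown in DMSO (adjusted p = 0.0482). Among the 8 fits without 1 library both calls were kept in 2, those without a KD largazole library. With DESeq2 (adjusted p = 0.133 and 0.172) and with no filter (0.0596 and 0.0582) neither passed, and the knockdown call was also lost with RLE scaling (0.05004), library totals (0.0524) and limma-voom (0.0541). In KD cells the value under largazole was -0.23 ± 0.34 (adjusted p = 0.621), and the difference between the responses, -1.38 ± 0.53, had an unadjusted p of 0.0258 and an adjusted p of 0.485.

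Among the JUN genes, Jun fell and Junb rose under largazole. Jun (chromosome 4, 95049034 to 95052222, minus strand, a single exon), the main transactivating partner in AP-1, read 366 and 374 CPM with DMSO and 195 and 191 with largazole in parental cells, against 382 and 376 and then 210.0 and 206 in KD cells. The libraries formed 2 levels that followed the drug, with little spread inside each group. Jun shares 232 exon bases with the antisense gene Junos, not analysed here. Log2 fold changes were -0.94 ± 0.07 (adjusted p = 3.48e-06) and -0.87 ± 0.07 (adjusted p = 5.65e-06), which is 0.521-fold and 0.549-fold the DMSO level. These calls passed in all 19 alternatives. Between genotypes Jun differed by 0.03 ± 0.07 in DMSO (adjusted p = 0.81) and 0.11 ± 0.07 under largazole (adjusted p = 0.307). Junb, a weaker activator that can restrain Jun, read 62.4 and 62.8 CPM with DMSO and 92.1 and 80.1 with largazole in parental cells, against 83.8 and 79.7 and then 145.5 and 107 in KD cells. Every largazole library was above both DMSO libraries of its genotype. Junb rose by 0.63 ± 0.13 in KD cells (adjusted p = 0.00348), a call kept in all 19 alternatives, and by 0.46 ± 0.14 in parental cells (adjusted p = 0.0177), a call lost without parental DMSO replicate 1 or 2 (adjusted p = 0.092 and 0.0878) or parental largazole replicate 1 (0.133). Under largazole KD cells held more Junb by 0.55 ± 0.13 (adjusted p = 0.0186), which was lost without parental largazole replicate 1 or 2 (adjusted p = 0.057 and 0.141) and when only the libraries compared were fitted (0.0723). In DMSO the difference of 0.39 ± 0.14 did not pass (adjusted p = 0.105), but did without KD largazole replicate 1 or 2 (0.39 and 0.38). It also passed with no filter (adjusted p = 0.0408), with only the libraries compared (0.000898) and with the trend on length removed (0.32, adjusted p = 0.0191). Junb shares 173 exon bases with Prdx2 on the other strand, which read 169 to 176 CPM in parental DMSO and 219 to 292 CPM in KD largazole.

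Jund, the JUN gene least dependent on stimulation, read 158 and 172 CPM with DMSO and 213 and 203 with largazole in parental cells, against 150.3 and 122 and then 174 and 131 in KD cells. KD libraries were below parental libraries in each condition, and the KD groups overlapped each other. Of its exon bases 877 are shared with the antisense gene Gm11175, not analysed here. Under largazole KD cells held less Jund by a log2 fold change of -0.45 ± 0.14 (adjusted p = 0.0456). This call was kept, of the fits without 1 library, only without KD largazole replicate 1, and without replicate 2 the value was -0.26 (adjusted p = 0.057). It was also lost with upper-quartile scaling (0.0595) and with only the libraries compared (0.107). Largazole in parental cells gave 0.33 ± 0.14 (adjusted p = 0.0626), which passed without KD largazole replicate 1 or 2 (0.33 and 0.32). It also passed with upper-quartile scaling (adjusted p = 0.031), library totals (0.0245), no filter (0.0258), DESeq2 (0.0466) and only the libraries compared (4.54e-05). Largazole in KD cells gave 0.16 ± 0.14 (adjusted p = 0.358), a value of -0.06 without KD largazole replicate 1 and of 0.35 without replicate 2 (adjusted p = 0.00679). The knockdown in DMSO gave -0.28 ± 0.14 (adjusted p = 0.245), which passed without KD largazole replicate 1 or 2 (-0.27 and -0.28). It also passed with only the libraries compared (adjusted p = 0.0154) and with the trend on length removed (-0.38, adjusted p = 0.00597).

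The make-up of both families differed between conditions, described here without a test because the shares are built from the members. Summed per length, the FOS transcripts stood at 155.9 and 150.5 CPM per kb in parental DMSO and 79.5 and 77.3 in parental largazole, against 159.7 and 145 and then 92.1 and 87.2 in KD cells. The FOS total was thus lower in every largazole library. Fosl1 made up 87.7% of it in both parental DMSO libraries and 76.5% and 73.9% in parental largazole. Its shares in KD cells were 85.7% and 83.9% with DMSO, then 76.4% and 69.3% with largazole. The Fosl2 share went from 8.64% and 9.28% to 21.4% and 23.5% in parental cells and from 11.01% and 12.2% to 21.5% and 28.4% in KD cells. The JUN total went from 237 and 247 CPM per kb to 229 and 216 in parental cells and from 246 and 226 to 233 and 189.6 in KD cells. Within it Jun went from 48.5% and 47.4% to 26.7% and 27.7% in parental cells and from 48.6% and 52.2% to 28.2% and 34.0% in KD cells. With the exon lengths used, Jund was the largest JUN share in all largazole libraries, at 55.8% and 56.2% in parental and 44.7% and 41.4% in KD cells. Junb reached its highest shares in KD largazole, at 27.1% and 24.6%, against 11.5% and 11.02% in parental DMSO. The absolute shares and the ranks within a family depend on the exon lengths taken from GENCODE M21 (9.68 kb for Fosl2 against 2.03 kb for Fosl1), which need not be those of the transcripts in these cells. Jund was taken as 1.67 kb with a start at 70698949, but its RefSeq window ended further upstream, at 70697738. A longer Jund would have a smaller share, and its rank above Jun under largazole was not tested against other lengths.

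**Figure D2:**
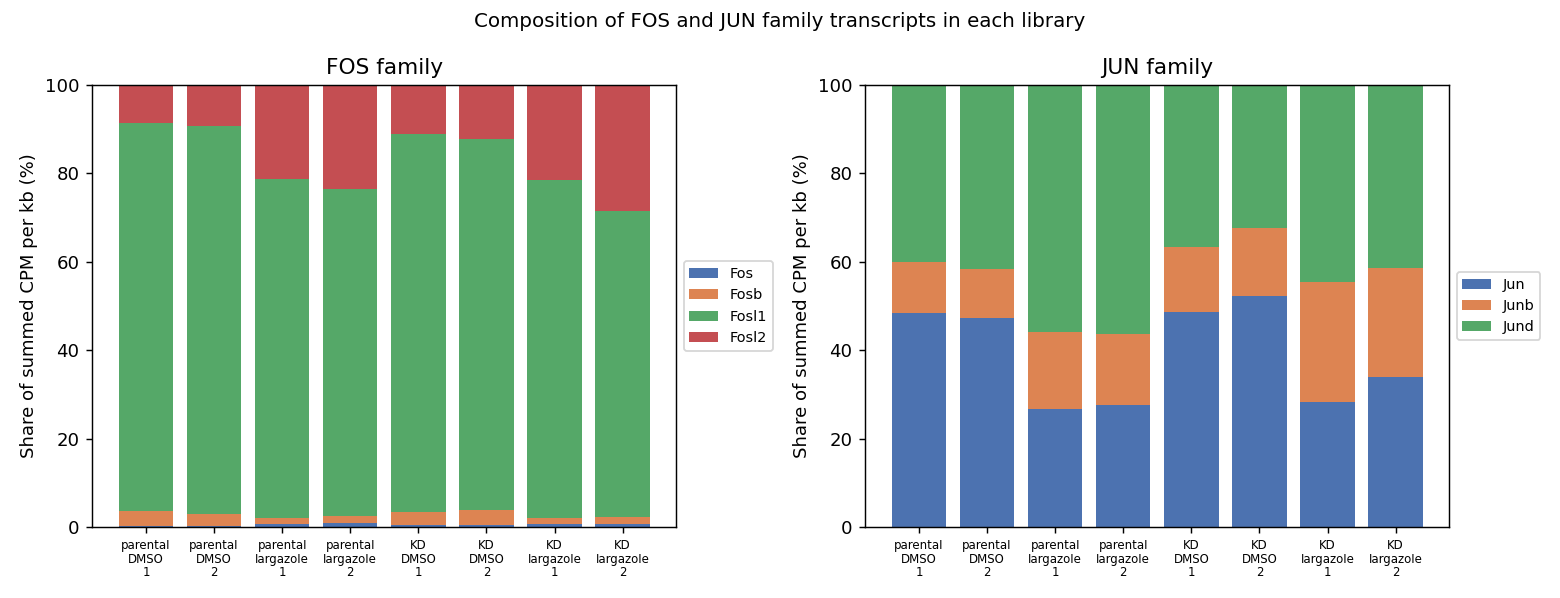
Share of each gene in the summed CPM per kilobase of its family (percent, stacked bars, 1 bar per library) for the FOS genes on the left and the JUN genes on the right. Fosl1 and Jun hold smaller shares, and Fosl2, Jund and Junb larger ones, in the 4 largazole libraries than in the DMSO libraries of the same genotype.

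Atf3, Egr1 and Ier3 followed 3 other patterns. Ier3 (chromosome 17, 35821684 to 35822923, plus strand), an early response gene with a role in cell survival, differed mainly between genotypes. It read 141 and 147 CPM with DMSO and 188 and 179 with largazole in parental cells, against 318 and 277 and then 384 and 283 in KD cells. All 4 KD libraries lay above all 4 parental libraries. The log2 fold change of the knockdown was 1.05 ± 0.13 in DMSO (adjusted p = 0.00067) and 0.86 ± 0.13 under largazole (adjusted p = 0.00173), which is 2.07-fold and 1.82-fold, and both calls passed in all 19 alternatives. Largazole gave 0.35 ± 0.13 in parental cells (adjusted p = 0.0448), a call kept, of the fits without 1 library, only without KD largazole replicate 1 or 2, and lost with limma-voom (adjusted p = 0.0508) and with the trend on length removed (0.11, adjusted p = 0.128). In KD cells largazole gave 0.16 ± 0.13 (adjusted p = 0.314), which was -0.08 without KD largazole replicate 1 and 0.36 without replicate 2 (adjusted p = 0.000846).

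Atf3, a stress-induced member of the CREB/ATF family that pairs with JUN proteins, was lowest where knockdown and drug met. It read 6.58 and 7.02 CPM with DMSO and 6.27 and 4.88 with largazole in parental cells, against 4.48 and 3.76 and then 2.34 and 1.69 in KD cells, from counts of 25 to 104. The 4 groups kept this order of their means, and no KD library reached a parental one. Under largazole the log2 fold change of the knockdown was -1.48 ± 0.26 (adjusted p = 0.00403), 0.360-fold the parental level, a call kept in all 19 alternatives. In DMSO the value was -0.72 ± 0.23 (adjusted p = 0.0768), which passed without KD largazole replicate 1 or 2 (-0.72 and -0.73). It also passed with only the libraries compared (adjusted p = 0.0143) and with the trend on length removed (-0.80, adjusted p = 0.0194). Largazole lowered Atf3 in KD cells, with a log2 fold change of -1.04 ± 0.27 (adjusted p = 0.00937), a call lost without KD DMSO replicate 1 (adjusted p = 0.0635), and gave -0.29 ± 0.22 in parental cells (adjusted p = 0.308). The difference between these responses, -0.76 ± 0.35, did not pass (adjusted p = 0.593).

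Egr1 (chromosome 18, 34859823 to 34864984, plus strand), a zinc finger factor induced by serum and MAP kinase signalling, had its lowest level in parental DMSO. It read 44.2 and 44.7 CPM with DMSO and 72.1 and 64.2 with largazole in parental cells, against 58.7 and 56.0 and then 62.8 and 64.9 in KD cells. The other 3 groups all lay above parental DMSO, and the 2 largazole groups overlapped. Largazole raised Egr1 in parental cells by 0.62 ± 0.09 (log2, adjusted p = 0.000462), in all 19 alternatives, and gave 0.16 ± 0.09 in KD cells (adjusted p = 0.198). The difference between these responses, -0.46 ± 0.13, had an unadjusted p of 0.00597 and did not pass (adjusted p = 0.278), and its adjusted p lay between 0.0612 and 0.987 over the alternatives. In DMSO KD cells held more Egr1 by 0.37 ± 0.09 (adjusted p = 0.0338), a call kept only without KD largazole replicate 1 or 2 among the fits without 1 library and lost without parental DMSO replicate 1 or 2 (adjusted p = 0.248 and 0.225), parental largazole replicate 1 or 2 (0.0528 and 0.0616) or KD DMSO replicate 1 or 2 (0.224 and 0.119), and with DESeq2 (0.0562). Under largazole the genotypes differed by -0.09 ± 0.09 (adjusted p = 0.543).

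**Figure D3:**
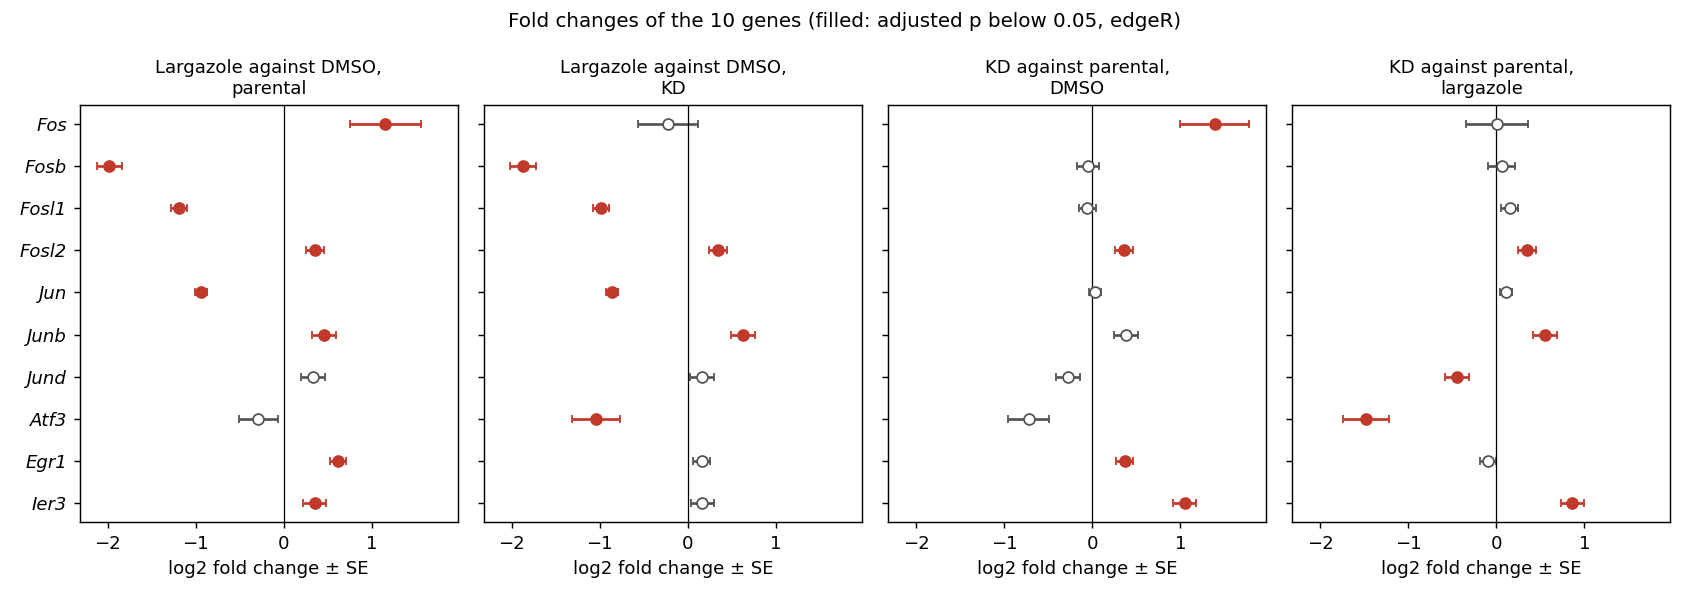
Log2 fold change of each gene (points) with its SE (bars) in the 4 comparisons, filled where edgeR's adjusted p is below 0.05. The 3 negative values of Fosb, Fosl1 and Jun recur in both largazole panels, and Ier3 is positive in both knockdown panels.

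Counted over the members, largazole in parental cells raised 5 (Fos, Fosl2, Junb, Egr1 and Ier3) and lowered 3 (Fosb, Fosl1 and Jun) of 10, where 49.3% of all tested genes were called, 26.8% higher and 22.6% lower. In KD cells it raised 2 (Fosl2 and Junb) and lowered 4 (Fosb, Fosl1, Jun and Atf3), where 47.7% of all genes were called, 24.6% higher and 23.1% lower. The members' median log2 fold changes were 0.34 and -0.03 beside 0.03 and 0.01 for all tested genes. The 8 parental calls became 4 without parental DMSO replicate 1 or 2 and 5 without parental largazole replicate 1 or 2. The knockdown in DMSO raised 4 members (Fos, Fosl2, Egr1 and Ier3) and lowered none, where 11.1% of all genes were called, 7.11% higher and 4.01% lower. Under largazole it raised 3 (Fosl2, Junb and Ier3) and lowered 2 (Jund and Atf3), where 17.8% were called, 8.12% higher and 9.67% lower, and these 5 calls became 3 without either parental DMSO or KD DMSO library and 2 without either parental largazole library. No member passed the test of the difference between the largazole responses (edgeR, 0 of 10, with 2 at an unadjusted p under 0.05, 0 by DESeq2 and 0 by limma-voom), where 0.232% of all genes were called, 0.0399% higher and 0.192% lower. Without KD largazole replicate 1 Ier3 passed it (-0.42, adjusted p = 0.0293). Of the 23 calls of members in these comparisons 11 passed in every alternative: Fosb, Fosl1 and Jun under largazole in both genotypes, Junb under largazole in KD cells, Egr1 under largazole in parental cells, Ier3 between genotypes in both conditions and Atf3 between genotypes under largazole. The number of members called for the knockdown in DMSO was 1 without either parental DMSO, parental largazole or KD DMSO library and 7 without either KD largazole library.

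Genes whose level followed a member most closely were named by Pearson's r of log2 CPM over the 8 libraries among 10158 genes of at least 5 CPM, a description over 8 points that fall into 4 groups. Nearest to Jun were Hnrnpa2b1 (r = 0.999) and Gusb (r = 0.998), to Fosb Suclg2 (0.998) and Nfyc (0.997), and to Fosl1 Cenpa and Tmed1 (both 0.996). Nearest to Fosl2 were Iqsec2 (0.992) and Fyco1 (0.991), to Junb Dynlt1b (0.993) and Ptdss2 (0.992), and to Jund Denr (0.972) and Eefsec (0.971). Nearest to Ier3 were Sod3, an extracellular superoxide dismutase (0.991), and Saa3, an acute-phase protein (0.989), and to Egr1 Ric8 (0.987) and Adck2 (0.977).

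Of 34 other immediate early genes tested, largazole raised 6 and lowered 10 in parental cells, where 26.8% of all genes were higher and 22.6% lower, and raised 5 and lowered 9 in KD cells, where 24.6% were higher and 23.1% lower. The numbers called, 16 and 14 of 34, were near the 49.3% and 47.7% of all genes, and the median log2 fold changes were 0.04 and -0.05. Dusp1, the phosphatase that switches off MAP kinases, rose from 12.3 to 35.0 CPM in parental and from 26.1 to 47.5 CPM in KD cells (log2 fold changes 1.51 ± 0.12 and 0.86 ± 0.11). The flow-responsive factor Klf2 rose by 1.61 ± 0.19 and 1.45 ± 0.19 and the small GTPase Rhob by 1.28 ± 0.07 and 0.79 ± 0.07. Cyr61, a matricellular protein, fell, with log2 fold changes of -0.67 ± 0.08 and -1.46 ± 0.09. The knockdown in DMSO raised 8 of the 34 and lowered Cyr61 (-0.55 ± 0.08), where 7.11% of all genes were higher and 4.01% lower. Under largazole it raised 8 and lowered 7, where 8.12% were higher and 9.67% lower. These knockdown counts moved with single libraries. In DMSO the 9 calls became 4 and 5 without parental DMSO replicate 1 and 2 and 5 without KD DMSO replicate 1. They became 16 and 15 when KD largazole replicate 1 or 2 was left out. Under largazole the 15 became 7 without parental largazole replicate 1 or 2.

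Among genes known as AP-1 targets, more were lower than higher under largazole and more were higher than lower with the knockdown. Of 18 tested, largazole lowered 9 and raised 5 in parental cells and lowered 11 and raised 3 in KD cells (all genes: 22.6% lower and 26.8% higher, then 23.1% and 24.6%), with median log2 fold changes of -0.37 and -0.65. The stromelysins Mmp3 and Mmp10 fell most: Mmp3 from 31.0 to 9.40 CPM in parental and from 169 to 25.2 CPM in KD cells (-1.72 ± 0.14 and -2.74 ± 0.13), and Mmp10 from 16.9 to 8.26 and from 41.0 to 8.996 CPM (-1.03 ± 0.15 and -2.18 ± 0.15). The EGF receptor ligand Hbegf fell too (-0.66 ± 0.09 and -1.10 ± 0.09). The 3 that rose in both genotypes, named after their values were seen, were the secreted protein Spp1, the protease inhibitor Timp1 and the EGF receptor ligand Areg, while Mmp13 rose in parental cells and fell in KD cells. Mmp13 was low, at 0.813 and 0.877 CPM with DMSO and 1.91 and 1.52 with largazole in parental cells. In KD cells it read 6.06 and 6.85, then 4.29 and 3.91 CPM. Its difference between responses, -1.66 ± 0.39, did not pass (edgeR, adjusted p = 0.158). The knockdown in DMSO raised 10 of the 18 and lowered 0, with a median of 0.48 beside 0.00 for all genes, of which 7.11% were higher and 4.01% lower (11 of the 18 had an unadjusted p under 0.05). The number called was 9 to 12 in the alternatives other than leaving out a library, and it fell further without some single libraries. Mmp3 rose by 2.44 ± 0.12, Mmp10 by 1.28 ± 0.14 and the cytokine Lif by 1.21 ± 0.09 on the log2 scale. Under largazole KD cells held more of 9 and less of 2, Hbegf among them (-0.49 ± 0.09), where 8.12% of all genes were higher and 9.67% lower, and the 11 calls became 7 without parental largazole replicate 1 or 2. In the test of the difference between responses edgeR called 0 of the 18 and DESeq2 2, with 8 at an unadjusted p under 0.05 in edgeR, and edgeR called 7 without KD largazole replicate 1 and 4 without replicate 2.

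**Figure D4:**
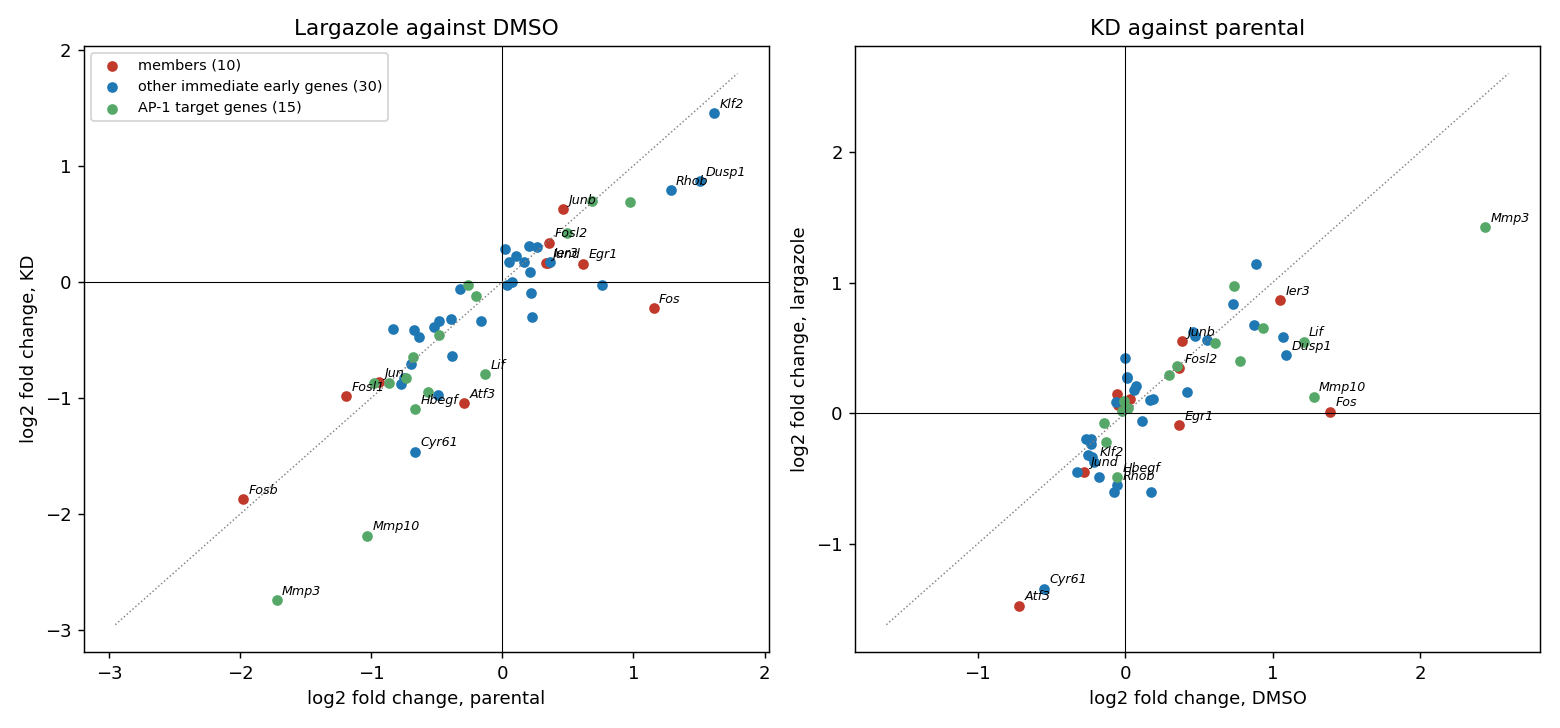
Log2 fold change of the 10 AP-1 and immediate early genes described above (red), and of 30 other immediate early genes (blue) and 15 AP-1 target genes (green) of at least 5 CPM, for largazole in parental against KD cells on the left and for the knockdown in DMSO against largazole on the right, with a dotted line of equality. Fosb, Fosl1, Jun, Mmp3 and Mmp10 lie at the lower left of the drug panel, and Atf3 and Cyr61 at the lower left of the knockdown panel.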

How the data were processed

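Poly(A)-selected, strand-specific RNA-seq libraries were made from 8 samples, per the labels' protocols. The authors deposited 1 table of estimated counts per gene for each sample, and the build named in the submitters' processing notes is mm10. Aligner, counter, strand setting and annotation: not given in the sources used here. Values were rounded to whole numbers. Some 27 gene symbols had been turned into dates, none of them a member.

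From these, genes with enough counts (edgeR's filterByExpr, minimum count 10, minimum total 15) were kept, 12517 of 24411, and TMM-scaled. All 8 libraries were fitted together with 1 mean per group by edgeR 4.0.16 (quasi-likelihood F test, R 4.3.3), with Benjamini-Hochberg adjustment over all tested genes and a threshold of 0.05. SE was taken as the size of the log2 fold change over the root of F. Log2 CPM used a prior count of 2. The difference between responses is the KD response minus the parental one. The 4 groups share libraries between comparisons. Alternatives were other scalings and filters, DESeq2 1.42.0, limma-voom (limma 3.58.1), only the libraries compared, a replicate block, leaving out Rn45s or each library, and, chosen after seeing the data, removal of a trend on exon length. The steps were tested on simulated data.

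The members and gene lists were chosen with earlier results of these data known. List genes were named by the size of the change, up to 4 per list, among those of at least 5 CPM past the threshold whose groups did not overlap. The other genes of a count of 5 or fewer were named after their values were seen. Of the list genes, 1 is included in the counts but not reported here by itself, nor plotted. Exon lengths and positions are from GENCODE M21 on GRCm38 (mm10).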

Additional observations from a re-analysis of the deposited data

Results flagged for a closer look

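Cyr61, a matricellular protein encoded by an immediate early gene, responded to largazole to a different degree in the 2 genotypes by the test of the difference itself. It read 123 and 121 CPM with DMSO and 77.2 and 76.4 with largazole in parental cells, against 81.3 and 85.0 and then 29.1 and 31.3 in KD cells. All largazole libraries were below the DMSO libraries of their genotype, and all KD libraries below the parental libraries of the same condition. The KD response minus the parental response was -0.79 ± 0.12 on the log2 scale (SE, edgeR, adjusted p = 0.032), and it was negative in every alternative (-0.84 to -0.74). The call passed in 11 of 18 alternatives, of which 2 were among the 8 fits without 1 library, and its adjusted p reached 0.381. It was kept only without KD largazole replicate 1 or 2 among those 8 fits.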

How the results depend on the processing

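For the members, 496 of 535 values kept direction and side of the threshold under settings other than leaving out a library, and 318 of 400 when 1 library was left out; the cause of the changes was not tested. The number called for the knockdown in DMSO was 2 with RLE scaling, library totals, DESeq2 or limma-voom, and 7 with only the libraries compared or with the length trend removed. Under largazole it was 2 with only the libraries compared. Leaving out each library gave 4 to 9 members for largazole in parental cells, 4 to 7 in KD cells, 1 to 7 for the knockdown in DMSO, 2 to 5 under largazole and 0 to 1 for the difference.

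Sign changes occurred among values that did not pass. Fos under largazole between genotypes was -0.01235 with library totals and -0.02011 with the length trend removed (-0.18 to 0.24 without 1 library). The difference in Fosl2 was 0.00147 with no filter (-0.18 to 0.13 without 1 library). With the length trend removed Ier3 under largazole in KD cells was -0.08961 (-0.07528 to 0.36 without 1 library) and Jun for the knockdown in DMSO was -0.0065. Without 1 library each, the knockdown in DMSO ranged from -0.19 to 0.08849 for Fosb and from -0.14 to 0.02105 for Fosl1, largazole in KD cells from -0.06191 to 0.35 for Jund, and the difference from -0.01762 to 0.26 for Fosb, -0.07016 to 0.38 for Junb, -0.39 to 0.02834 for Jund and -0.42 to 0.02698 for Ier3.

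The labels do not say that a replicate number marks a shared culture, batch or day, so the samples were taken to share a number only. Deviations of same-numbered libraries correlated at 0.146, 0.273, 0.343 and 0.364 in 4 pairs of groups and at 0.00167 and -0.00767 in the other 2. With the replicate block the members called numbered 9, 6, 6, 5 and 0, and Jund under largazole in parental cells (adjusted p = 0.0173) and Junb and Atf3 for the knockdown in DMSO (0.0241 and 0.045) passed in addition. Over all genes, the share called for the knockdown in DMSO was 3.26% to 27.9% over the alternatives against 11.1%, under largazole 6.36% to 32.3% against 17.8%, and for the difference 0.0156% to 4.26% against 0.232%. Fits without 1 library leave a group of 1, assumed to vary like the others. Counts of Fos (8 to 26) and Atf3 (25 to 104) limit their precision.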

Other observations

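Of 21 regulators upstream of AP-1 tested, largazole lowered 4 in parental cells (Srf, Mkl1, Map2k3 and Map2k4) and in KD cells lowered 5 (Srf, Mkl1, Mapk7, Mapk8 and Map2k3) and raised 2 (Mapk3 and Mapk9), where 49.3% and 47.7% of all tested genes were called. Srf, the serum response factor that drives many immediate early genes, went from 98.4 ± 2.48 to 37.8 ± 1.40 CPM in parental cells and from 87.9 ± 1.21 to 34.1 ± 4.76 CPM in KD cells (SD, n = 2, log2 fold changes -1.38 ± 0.11 and -1.37 ± 0.11, edgeR, adjusted p = 5.76e-06 and 6.05e-06). Map2k3, a kinase of the p38 pathway, fell in both genotypes (-0.90 ± 0.08 and -1.04 ± 0.08). The knockdown lowered 1 of the 21 in DMSO, Map2k2 (-0.40 ± 0.08, adjusted p = 0.0144), a kinase upstream of ERK, where 11.1% of all genes were called, a call lost without either parental DMSO or KD DMSO library (adjusted p up to 0.124). Under largazole it lowered 2 (Map2k2 and Mapk7) and raised 2 (Mapk9 and Map2k1), where 17.8% of all genes were called. These 4 became 0 and 1 without parental largazole replicate 1 and 2, 2 without KD DMSO replicate 1 or either parental DMSO library, 7 when replicate 2 of KD largazole was left out, and 1 with only the libraries compared.

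Among 9 genes of AP-1 turnover and EGR corepression, largazole raised Nab2, a corepressor of EGR1, in both genotypes (0.58 ± 0.09 and 0.53 ± 0.09), and lowered Usp28, Itch and Cul4a in both and Rfwd2 in parental cells. These calls, 5 and 4 of the 9, were near the 49.3% and 47.7% of all tested genes called. Those of Itch lay near the threshold (-0.37 in parental and -0.44 in KD cells, edgeR, adjusted p = 0.0417 and 0.0219), and each was lost in some alternatives. For the knockdown 11.1% of all tested genes were called in DMSO and 17.8% under largazole. The knockdown raised Nab2 in DMSO (0.33 ± 0.09, adjusted p = 0.0382) and Nab1 under largazole (0.37 ± 0.10, adjusted p = 0.0286), the only calls of that list in each. The Nab2 call was lost in the 6 fits that left out a parental or KD DMSO library (adjusted p 0.0788 to 0.3004). No gene of the list was called under largazole in those 6 fits, with library totals or with only the libraries compared. Of 9 tested dimer partners, largazole raised Maf (0.87 ± 0.31 and 0.98 ± 0.29) and Batf3, which had at most 0.953 CPM and stood at 0 in both KD DMSO libraries, and lowered Mafg (-0.74 ± 0.16 and -0.67 ± 0.17) and Jdp2, a repressor of AP-1 (-0.39 ± 0.13 and -0.67 ± 0.13). In each genotype 4 of the 9 were called, near the 49.3% and 47.7% of all tested genes. The knockdown lowered Jdp2 under largazole (-0.54 ± 0.13, adjusted p = 0.0176), a call lost without parental largazole replicate 1 (-0.39, adjusted p = 0.156) and with only the libraries compared, while in DMSO edgeR called 0 of the 9, with 2 at an unadjusted p under 0.05, 2 called by DESeq2 and 0 by limma-voom. These counts moved with single libraries. The 4 upstream regulators called for largazole in parental cells became 2 without parental DMSO replicate 2, and 9 or 10 when replicate 1 or 2 of KD largazole was left out. The 7 in KD cells became 3 without KD DMSO replicate 2 and 11 when replicate 1 of KD largazole was left out. In parental cells the 4 dimer partners became 1 or 2, and the 5 turnover genes 2 or 3, without any 1 of the 4 parental libraries, and the 4 turnover genes in KD cells became 1 without KD DMSO replicate 2. Genes outside the naming rule were named after their values were seen.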
